A study of Drosophila melanogaster with 8 samples.

Results

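The Gpdh1 neighbourhood is the stretch of chromosome arm 2L from 5500000 to 6500000 (BDGP6, release 6 coordinates) that holds Gpdh1, the gene for cytosolic glycerol-3-phosphate dehydrogenase. Its members were taken by position: every gene identifier in the deposited counts, here called a feature, whose gene midpoint lies in this window of 1 Mb. There were 182 such features among the 17445 in the files, 150 of them protein-coding genes, 25 named as long noncoding RNAs (lncRNA), 6 as antisense RNAs (asRNA) and 1 small nuclear RNA. The window was chosen by its readout: Gpdh1, lncRNA:CR44986, Ucp4B, Tsp26A and asRNA:CR43866 were selected on their higher counts in Ldh mutants than in controls, so their differences between genotypes are given here as a description, without p-values. For the remaining members the question was whether that difference was spread along the arm or limited to a few features.

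RNA came from whole Drosophila melanogaster larvae at mid-L2, grown for 60 hours at 25 °C, with 25 larvae pooled in each sample. The 4 mutant libraries, replicates 1, 2, 3 and 6, were w[1118]; Ldh[16/17], a combination of mutant alleles of Ldh, the lactate dehydrogenase gene on arm 3L. The 4 control libraries, replicates 1, 2, 5 and 6, were w[1118]; Ldh[precise], the control allele, and both groups carry the white allele w[1118]. The labels name no mutation on 2L, and nothing in them tells if libraries of one genotype came from separate cultures, so that p-values cover only how far these samples differ, in part perhaps technically.

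Gpdh1 uses NADH to reduce dihydroxyacetone phosphate to glycerol-3-phosphate. This returns NAD+ to glycolysis, as Ldh does by making lactate, and it supplies the backbone of glycerolipids. Mitochondrial glycerol-3-phosphate oxidases (Gpo genes in the fly) pass the electrons on, which closes the glycerol-3-phosphate shuttle. Genes that lie close together are inherited together and can overlap on opposite strands, so the reads of one gene have to be looked at beside those of its neighbours.

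Between 371700 and 560865 reads per library were assigned to features, which was 1.24% to 1.62% of all lines of a file, and 2589 features over the whole genome passed the expression filter of edgeR and were tested. Ldh had 0 reads in every mutant library and 1 to 5 in each control library. Of the lists of cell type markers, hemocyte genes moved with the genotype: the 6 genes summed to 110.0 to 146 CPM (reads per 1000000 reads in tested features) across mutant libraries and 183 to 218 across control libraries. The defining marker eater was at 0, Hml and NimC1 had at most 4 reads per library, and the sum was carried by the basement membrane collagen genes Col4a1 and vkg, neither of which was called. Both collagen genes lie on 2L too, to the left of the window. Their part in the results below was not tested. In whole larvae, fewer cells of a type and less RNA per cell cannot be told apart. Mutant replicate 3 differed most from its group, and values that rest on it are given with and without it.

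Few members could be measured. Of the 182 features, 72 had no read in any library, 79 had reads but lay below the filter, and 31 were tested. In single libraries 56 to 78 members had at least 1 read. The unread members included genes of adult reproduction that stand in rows around Gpdh1: the seminal fluid genes Acp26Aa, Acp26Ab, Sfp26Ac and Sfp26Ad had 0 reads, and the eggshell genes Vm26Aa, Vm26Ab, Vm26Ac and psd had 1 read in all 8 libraries together. The muscle glutamate receptor genes GluRIIA and GluRIIB had 0 and 1 reads, and the 3 DIP genes, which encode cell surface proteins of neurons, had 1 read between them. Kr-h1, a transcription factor of the juvenile hormone response, had 2 reads, both in controls. A count of 0 in a library allows a level of up to 5.38 to 8.12 CPM (3 reads), and changes in these genes were not detectable at this depth. This limit covers counting error only.

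The reads of the window were held by a handful of features, and most of these lie opposite an exon of another gene. Over all libraries the window had 38508 reads, of which lncRNA:CR44986 alone held 33.0%, CG13982 19.2%, CG34180 10.8%, Vps52 7.63% and asRNA:CR31912 5.25%. The 48 members that share exon bases with a gene on the opposite strand held 96.7% of the window's reads (95.9% to 97.5% in single libraries). This share was near that of all placed features, 94.99%, and of the flanks, 90.6% in the 1 Mb to the left and 94.7% in the 1 Mb to the right. Scaled by exon length, lncRNA:CR44986 also ranked first, at 5180 CPM per kb of exon. Among the 10 members with the highest CPM, CG9154 and WDR79, a component of telomerase and Cajal bodies in human, were the ones without an opposite-strand partner of at least 50 bp.

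The window holds 20 pairs of members that overlap on opposite strands by at least 50 bp of exon. In 13 of them the feature with more reads had at least 10 times the reads of its partner, or the partner had none. The 13 include lncRNA:CR44794 and lncRNA:CR44819, each with 1 read against 0, which meet the rule trivially. They also hold asRNA:CR44793 and IPIP in more than 1 pair each, so they are not 13 separate loci. CG34180 had 4156 reads and its partner ND-51, a subunit of respiratory complex I, had 11, although they share only 97 bp. CG13982 had 7396 reads and its partner Tig, the extracellular matrix protein Tiggrin, had 56. Vps52, a subunit of a vesicle tethering complex, had 2938 reads against 281 of its partner cl, the clot gene of eye pigment synthesis. The feature asRNA:CR31912 had 2020 reads and CG9171, of which it covers 1253 bp of exon, had 8. Whether strand was used in counting was not stated in the sources used here. In the pair of Ucp4B and asRNA:CR43465, which have the same start and end (2L, 5969859 to 5971025), Ucp4B had 136 reads and asRNA:CR43465 had 2. In this annotation both have every exon base in common, so counting without strand could not have split them. If stranded libraries had been counted with the opposite setting, the count of each feature in such a pair would come from RNA of its partner's strand, so that the lncRNA:CR44986 count would hold reads of Gpdh1 mRNA and the Gpdh1 count those of antisense RNA. The kit and the setting were not stated and this was not tested. Symbols below therefore name features of the count table, not a known RNA, and each is given with its partner.

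**Figure D1:**
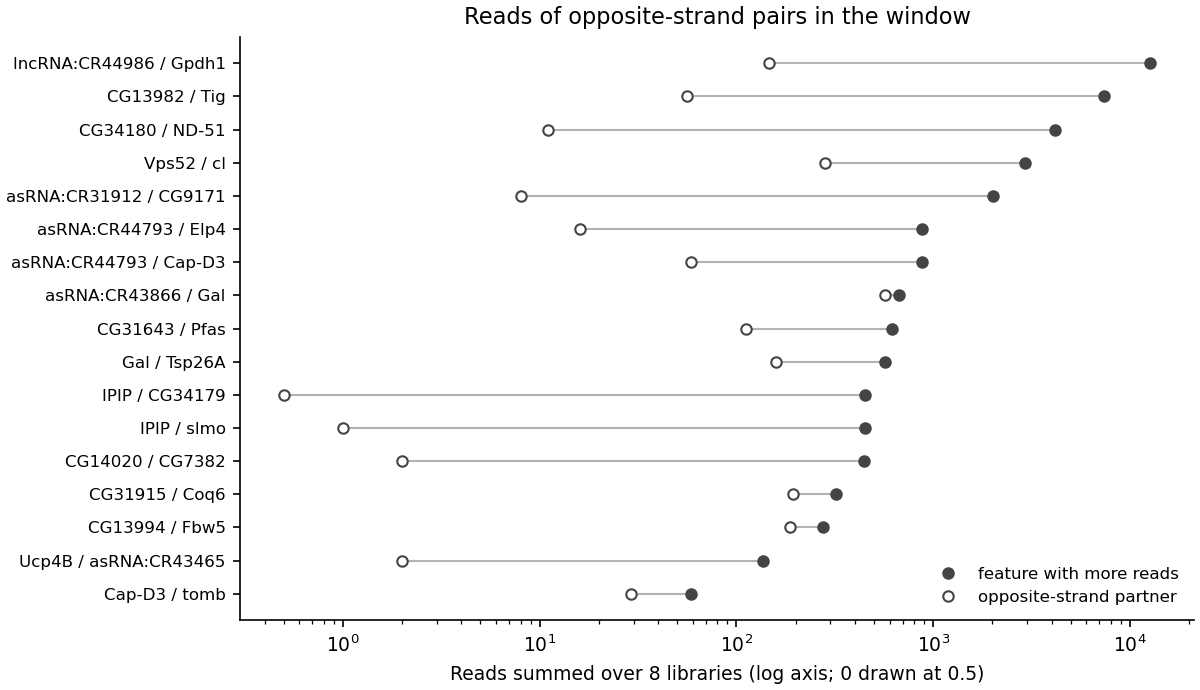
Reads summed over the 8 libraries (horizontal log axis) for the 17 most-read opposite-strand pairs of the window, 1 pair per line, with the more-read feature filled and its partner open (CG34179, without reads, is drawn at the left end). lncRNA:CR44986 had 12708 reads against 146 of Gpdh1, while asRNA:CR43866 (670) and Gal (569) lay close together.

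The features Gpdh1 and lncRNA:CR44986, on opposite strands of 1 locus, both had higher counts in mutants, by unequal amounts, and which of them holds the Gpdh1 mRNA is not known. Reads of the Gpdh1 feature (FBgn0001128, plus strand of 2L, 5943643 to 5948968) numbered 28, 31, 32 and 27 in mutant replicates 1, 2, 3 and 6. Control replicates 1, 2, 5 and 6 had 6, 7, 6 and 9. Without any overlap, every mutant library lay at 61.7 to 69.8 CPM against 10.8 to 24.4 CPM in controls. Mean levels of Gpdh1 were 66.3 ± 3.91 and 16.9 ± 5.64 CPM (SD, n = 4 per genotype), a log2 fold change of 1.997 (SE 0.26, mutant over control). The antisense feature lncRNA:CR44986 (2L, 5947647 to 5948397, minus strand) had 1679, 2211, 1959 and 2076 reads in the mutants and 1047, 1190, 1515 and 1031 in the controls, or mean levels of 4439 ± 271 and 2782 ± 87.5 CPM. These groups were also apart, and the log2 fold change was 0.67 (SE 0.08).

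All 697 exon bases of lncRNA:CR44986 lie within exons of Gpdh1, 663 of them in sequence annotated only as 3′ untranslated and 31 in coding sequence of at least 1 of the 6 Gpdh1 transcripts. Summed into 1 unit, the pair had 1707 to 2242 reads in mutants and 1040 to 1521 in controls, with a log2 fold change of 0.69 (SE 0.08). The sum follows the antisense feature, which holds most of its reads. Leaving out single libraries moved the log2 fold change of Gpdh1 between 1.79 (without control replicate 5) and 2.21 (without control replicate 6), and that of lncRNA:CR44986 between 0.64 and 0.71. On either side, the nearest neighbours had almost no reads: Sfp26Ad had 0, and CG9044 had 3 in all mutants together and 2 in all controls together.

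Ucp4B, 20890 bp beyond Gpdh1, was the next feature along the arm that was higher in mutants. It encodes a mitochondrial carrier of the uncoupling protein family, and asRNA:CR43465 lies on its other strand. Ucp4B (2L, 5969859 to 5971025, plus strand) was read 29, 26, 36 and 17 times in the mutants and 8, 5, 10 and 5 times in the controls, in the same order of replicates. Mutant replicate 6 was the lowest of its group, at 38.9 CPM, and still lay above the highest control at 20.8 CPM. The log2 fold change was 1.88 (SE 0.30), and between 1.73 and 2.04 without single libraries. Both reads of asRNA:CR43465 were in mutant replicate 3. The neighbouring gene of the same family, Ucp4C, which ends 97 bp before Ucp4B on the same strand, had 1 read in all 8 libraries together.

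The features that come next, chic and eIF4A, had log2 fold changes near 0. Chic encodes the actin-binding protein profilin and lies on the minus strand, with its 3′ end 1089 bp beyond Ucp4B. It had 12, 19, 20 and 26 reads in mutants and 7, 21, 31 and 21 in controls, with overlap of the groups and a log2 fold change of -0.09 (SE 0.32). Translation initiation factor eIF4A, an RNA helicase, had 24, 34, 29 and 23 reads in mutants and 22, 24, 38 and 13 in controls, and a log2 fold change of 0.14 (SE 0.22). The standard errors leave room for changes in either direction, in chic more than in eIF4A. Of the next genes, ifc, a sphingolipid desaturase, had 1 read, and the histone demethylase gene Kdm5 had 13 reads in all mutants together and 14 in all controls together (ratio 0.866, exact 95% interval 0.375 to 1.99, counting error only).

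At the far end of the cluster, Tsp26A, Gal and asRNA:CR43866 overlap one another in a chain. Tsp26A encodes a tetraspanin, a protein with several membrane spans that organises other membrane proteins, and Gal encodes a beta-galactosidase. Tsp26A (2L, 6000228 to 6003738, plus strand) was read 14, 21, 41 and 32 times in the mutants and 16, 13, 13 and 8 times in the controls. Its groups overlapped, since mutant replicate 1, at 34.9 CPM, lay below control replicate 1, at 41.6 CPM. The log2 fold change of Tsp26A was 1.04 (SE 0.33), and 0.79 without mutant replicate 3. Tested on its own, Tsp26A was called without the expression filter and in no other alternative run. Summed with Gal and asRNA:CR43866 it was part of a called unit, but most reads of that unit came from these neighbours.

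The feature asRNA:CR43866 (2L, 6004167 to 6006333, plus strand) had 74, 95, 257 and 99 reads in mutants and 46, 28, 43 and 28 in controls. The groups did not overlap, but mutant replicate 3 stood at 556 CPM against 185 to 226 in the other mutants and 68.3 to 119 in controls. The log2 fold change was 1.78 (SE 0.33), and 1.26 without mutant replicate 3. Gal (2L, 6003574 to 6006827, minus strand), whose coding sequence holds 1266 bases of the antisense exons, had 58, 74, 73 and 72 reads in mutants and 63, 64, 93 and 72 in controls. These counts overlapped, and the log2 fold change of Gal was -0.13 (SE 0.13). Tsp26A and Gal share 165 bp, which are 3′ untranslated in both. The next gene beyond, CG9098, had 2 reads in all.

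**Figure D2:**
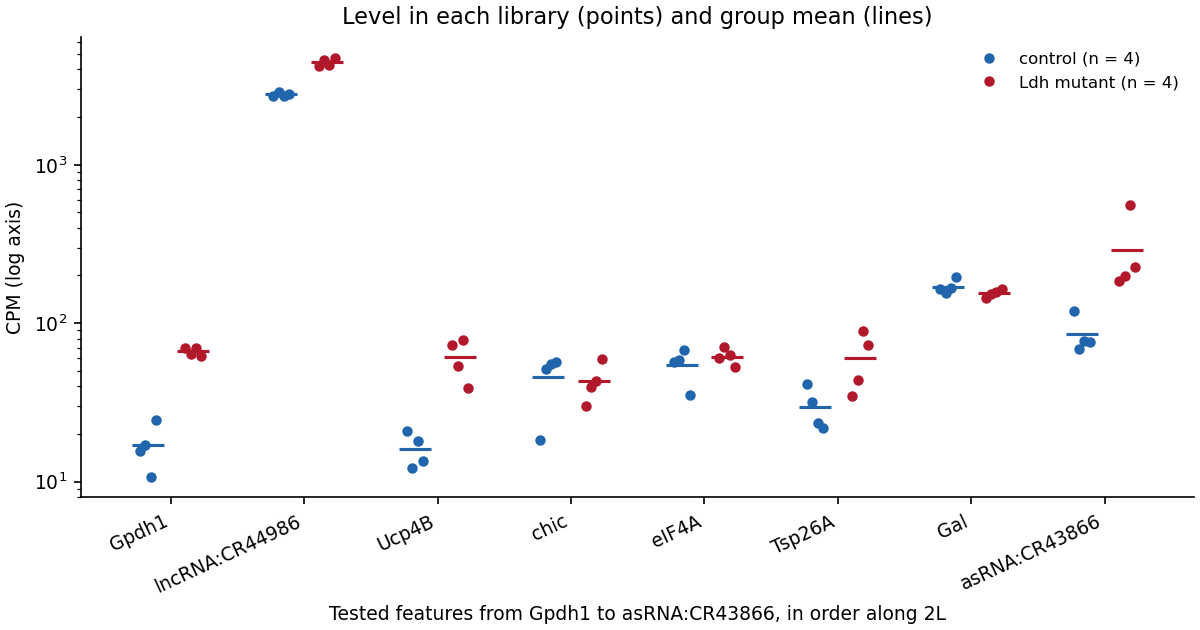
Level in CPM (vertical log axis) of the 8 tested features from Gpdh1 to asRNA:CR43866 in order along 2L, with 1 point per library and the group means as lines. The groups are apart for Gpdh1, lncRNA:CR44986, Ucp4B and asRNA:CR43866, and overlap for chic, eIF4A, Tsp26A and Gal.

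Together, the features that led to the window lie within 62.7 kb (2L, 5943643 to 6006333), a span with 20 members of which 8 were tested. Of the other 15 members of this span, 4 had no reads, 8 lay below the filter and 3 (chic, eIF4A and Gal) were tested, with log2 fold changes of -0.13 to 0.14. Among the 8 tested features of the span, those higher in mutants therefore alternated with these 3, which were near 0, on both strands. For chic, control replicate 1 stood apart, at 18.2 CPM against 51.2 to 56.9 CPM in the remaining controls, so its value near 0 is less certain. Across libraries the 5 features did not all share an order either. Tsp26A and asRNA:CR43866, on the plus strand with 428 bp between them, did rank the mutants alike, from replicate 1 through 2 and 6 to 3. Control replicate 1 was the highest control for both. Mutant replicate 3 was the highest mutant library for asRNA:CR43866, Tsp26A and Ucp4B, mutant replicate 6 was the highest for lncRNA:CR44986 and the lowest for Ucp4B and Gpdh1, and the Gpdh1 values of the mutants were close to each other.

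Over the whole window, 4 of the 31 tested members were called, all higher in mutants (quasi-likelihood test of edgeR, adjusted p under 0.05 after Benjamini-Hochberg correction over all 2589 features): Gpdh1, lncRNA:CR44986, Ucp4B and asRNA:CR43866. Tsp26A was not. Over all features tested, 3.17% were called in either direction (82 features, and 164 without mutant replicate 3) and 1.54% as higher. Because the window was drawn around called features, nothing can be read from the difference between these shares. Among the 26 tested members that did not lead to the window, 0 were called (lowest edgeR adjusted p = 0.167), and 3 had an unadjusted p under 0.05, all of them lower in mutants: cl, Coq6 and Nepl5. That is 11.5% of the 26, where 15.4% of all placed features tested had such a p. DESeq2 called 0 of them as well. Without the expression filter, Nepl5 was called, and cl was called among the 6 libraries with replicate numbers 1, 2 and 6. The median log2 fold change of these 26 was 0.01 (range -1.20 to 0.33), and 14 were above 0 and 12 below. Over all features tested the median was 0.01 and 51.6% were above 0. Of the 26, 24 lay within 0.5 of 0 on the log2 scale, the exceptions being cl and Nepl5. The share within 0.5 was 88.0% over all features.

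**Figure D3:**
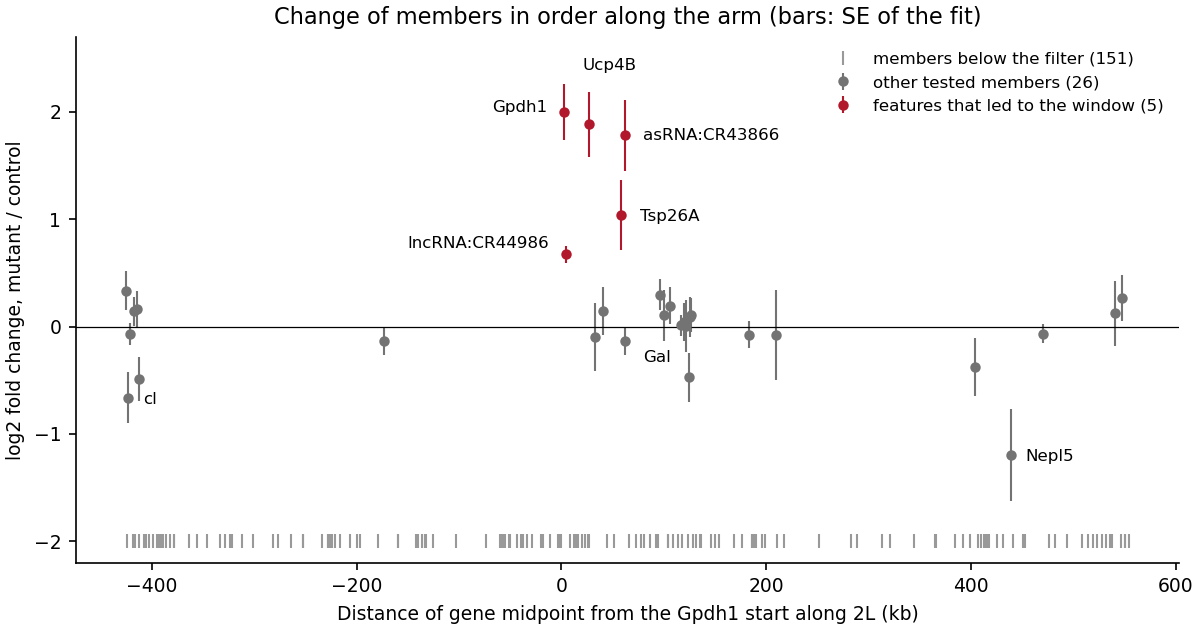
Log2 fold change (mutant over control, bars SE) of the 31 tested members against the distance of the gene midpoint from the Gpdh1 start in kb, with the 151 members below the filter as ticks. The 5 features that led to the window stand between 0.67 and 1.997 within 62.7 kb, and the other 26 members lie between -1.20 and 0.33 on both sides and among them.

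The largest falls among the members were uneven between libraries. Nepl5, a gene of the neprilysin-like family of membrane peptidases, had 13, 9, 16 and 1 reads in mutants and 14, 31, 26 and 16 in controls, and a log2 fold change of -1.20 (SE 0.43). Mutant replicate 6, with 1 read, was far below the rest. Its groups did not overlap in CPM, with a highest mutant at 34.6 and a lowest control at 36.4. The cl feature, opposite Vps52, had 22, 33, 39 and 18 reads in mutants and 32, 54, 43 and 40 in controls, with overlap and a log2 fold change of -0.66 (SE 0.24). Coq6, a monooxygenase gene of ubiquinone synthesis opposite CG31915, had log2 fold change -0.49 (SE 0.21), CG9150 -0.47 (SE 0.23) and CG9497 -0.38 (SE 0.27). Without overlap in CPM were 2 lower members, Nepl5 and CG9150, and the 4 called higher members, where 4.98% and 4.56% of all features tested had groups without overlap in these directions.

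Rises beyond the cluster were small. CG14020, opposite CG7382, had 52 to 73 reads in mutants and 29 to 63 in controls, and a log2 fold change of 0.33 (SE 0.18). CG31643, opposite Pfas, an enzyme of purine synthesis, had 73 to 96 reads against 59 to 80, and 0.30 (SE 0.14). Phf5a, a splicing factor gene, had 23 to 39 reads against 18 to 39, and 0.26 (SE 0.22). None of these was called.

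The members next to lncRNA:CR44986 in reads, ranks 2 to 4 of the window, had log2 fold changes near 0. CG13982 had 829 to 1012 reads in mutants and 779 to 1122 in controls, with a log2 fold change of -0.06 (SE 0.09). CG34180 had 496 to 574 against 377 to 698, with 0.01 (SE 0.10), and Vps52 had 337 to 394 against 304 to 459, with -0.07 (SE 0.10). The groups overlapped in all of these. With all members summed, the window's level was 11916 ± 171 CPM (SD, n = 4) for mutants and 10035 ± 225 CPM for controls. Without the 5 features that led to it, the sum was 6999 ± 187 against 7105 ± 150 CPM, and the ranges of the libraries overlapped (6832 to 7211 and 6993 to 7327 CPM).

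In steps of 100 kb along the window, the tested members fell in 7 of 10 bins. The bins from 5900000 to 6000000 and from 6000000 to 6100000 held 17 of the 31 tested members, all 4 called ones, and 34.8% and 22.7% of the window's reads. The bin from 5500000 to 5600000 had 6 tested members, 3 above 0 and 3 below. Stretches without a tested member, from 5600000 to 5700000, 5800000 to 5900000 and 6200000 to 6300000, could not be read, so a change there would have gone unseen. At the edges, the first members inside were CG14020 and CG7382 on the left, of which CG14020 was tested, and CG31638 and CG9550 on the right, with 10 and 3 reads. Just outside lay mid and lncRNA:CR45287 on the left with no reads, and lncRNA:CR44775 and CG31637 on the right with 1 and 4 reads.

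Neither flank of equal length held a feature called by edgeR or DESeq2. Over all features tested edgeR called 3.17%, so with few features tested a count of 0 does not set the flanks apart. In the 1 Mb to the left, 0 of 29 tested features were called by edgeR, with 6 at an unadjusted p under 0.05 and log2 fold changes of -0.80 (vkg) to 0.65. In the 1 Mb to the right, 0 of 16 were called by edgeR, with 3 at an unadjusted p under 0.05 and log2 fold changes of -0.26 to 0.66. These are 20.7% and 18.8% of the tested features on the left and on the right, beside 15.4% over all placed features. Cut into 129 windows of 1 Mb with at least 1 tested feature, the chromosome arms had 79 windows without a called feature, 31 with 1, 12 with 2, 5 with 3 and 2 with 4. The other window with 4 lay on 2L from 9500000 to 10500000 and held 2 higher and 2 lower features. The Gpdh1 window was the only one of the 129 with 3 or more features called higher. It was chosen for these features, so its rank is a description.

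**Figure D4:**
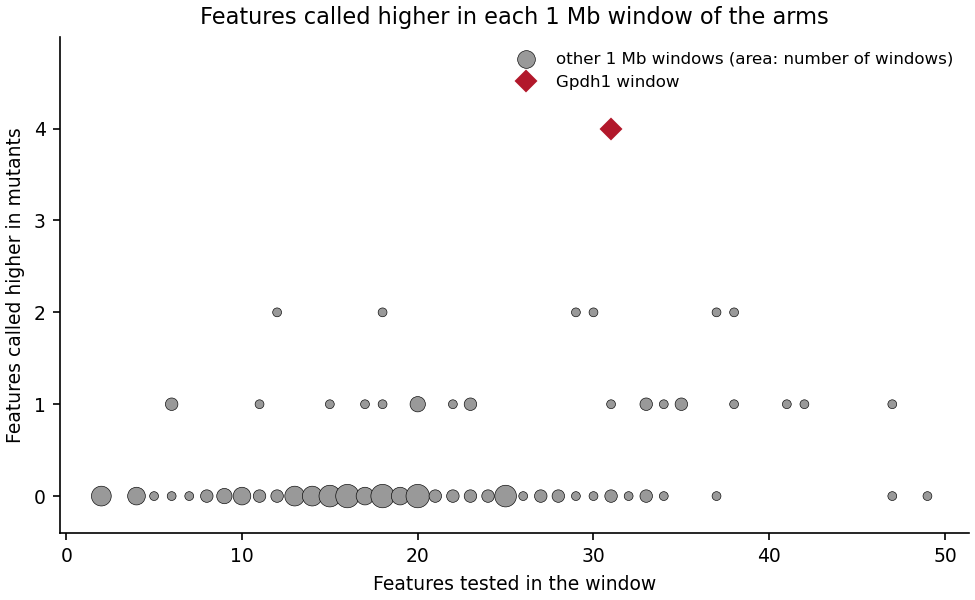
Number of features called higher in mutants (vertical) against the number of features tested (horizontal) in each of the 129 windows of 1 Mb, with the area of a grey point for the number of windows at that place. The Gpdh1 window, with 4 of 31, lies above all others, which have at most 2.

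Genes of the same families or pathways as Gpdh1, Ucp4B, Tsp26A and Gal, but located elsewhere, were mostly too thinly read to compare. Gpdh1 and Ucp4B led to the window, so their calls in these lists are a description, beside 3.17% called over all features tested. Of 8 genes matched in the list of the glycerol-3-phosphate cycle and glycerol kinases, 2 were tested. Gpdh1 was called, and Gpo2, opposite CG1598, had 70 to 98 reads in mutants and 70 to 103 in controls, with a log2 fold change of -0.09 (SE 0.13). Gpdh2, Gpdh3 and Gpo3 had no reads, and Gpo1 had 2 to 6 against 2 to 5. Of the 4 uncoupling proteins, Ucp4B was called and Ucp4A, opposite CG15814, had 79 to 86 reads against 61 to 115 and a log2 fold change of 0.00 (SE 0.13). Ucp4C and Bmcp lay below the filter. Of 35 tetraspanin genes 4 were tested, and 1 was called, in the opposite direction to Tsp26A: Tsp96F had 5 to 11 reads in mutants and 17 to 29 in controls, and fell by 1.64 on the log2 scale (SE 0.26). Besides Gal, the other beta-galactosidase gene, Ect3, had 4 reads, all in controls.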

How the data were processed

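Whole-number counts per FlyBase gene identifier of 8 RNA-seq libraries, 4 per genotype, were used as the authors deposited them, without normalization. Tools named by the submitters were Trimmomatic 0.32, CASAVA, Bowtie2 2.2.4, TopHat2 2.0.13, DESeq2 and HTSeq 0.6.1p1. The sources used here do not give the build, annotation or strand setting of the counting, and the paper's methods describe another route, with other controls. Lines that name no gene were left out (no feature, 65.1% to 77.2% of a file, not unique, 21.2% to 33.7%, and ambiguous, 0.0255% to 0.0350%). The Ensembl release 115 annotation of BDGP6 placed 17151 of 17445 identifiers, with 99.6% of the reads.

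All 8 libraries entered one fit in edgeR 4.0.16 (R 4.3.3; default filter, TMM scaling, quasi-likelihood test, no covariate), adjusted over 2589 features and tested on simulated data. CPM use the same scaling. Alternatives included DESeq2 1.42.0. Members and lists were chosen with earlier results of these data known. Named features were the 5 that led to the window, called members, the 10 with the highest CPM, neighbours and partners of the 5, the 5 largest rises and falls, and listed genes. Other members were named after their values were seen. Of 10 symbols of the glycerol list 8 matched, and of 7 muscle markers 6. The marker lists for muscle, fat body, midgut, epidermis, nervous system, salivary gland and Malpighian tubule had 0 called members (edgeR). Outside muscle, few or none of these markers were tested. Replicates differed beyond counting noise, by chi-square values per degree of freedom of 1.63 to 2.83 between controls and 2.66 to 10.5 between mutants. Mutant pairs without replicate 3 reached 6.35.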

Additional observations from a re-analysis of the deposited data

Results flagged for a closer look

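Among 42 sets of 4 libraries, from 21 members, 3 held a library set apart from the rest by Dixon's test at the 95% level. Chance gives about 1 such set in 20. In asRNA:CR43866 this was mutant replicate 3, at 556 CPM where the remaining mutants had 185 to 226. In chic it was control replicate 1, at 18.2 CPM where the remaining controls had 51.2 to 56.9. In CG9497 it was control replicate 5, at 41.2 CPM where the remaining controls had 28.6 to 29.8.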

How the results depend on the processing

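The count of 4 called members was within 1.5 times of its value under all 21 alternatives run. It was 4 with DESeq2 size factors, library totals, DESeq2, a filter of 1 CPM in 4 libraries and without any single library. In each of these the called members were the same 4. These 4 had led to the window by the same contrast in these libraries, so their being called again is a description. Without a filter the count was 6, with Tsp26A and Nepl5 added. With overlapping members summed, 3 of 24 units were called: the Gpdh1 pair, the Ucp4B pair and the chain of Gal, Tsp26A and asRNA:CR43866 (log2 fold change 0.83, SE 0.21). That alternative also brought the median log2 fold change of the 5 features from 1.78 to 0.83, because they then fall in 3 units. Without single libraries this median ranged from 1.26 (without mutant replicate 3) to 1.97, the share of tested members above 0 from 51.6% to 64.5% (main value 61.3%) and the median log2 fold change of tested members from 0.00166 to 0.104 (main value 0.09), the lowest share and median without control replicate 6. The share was 51.6% with library totals and 70.0% with the window narrowed by 250 kb at each end. The cause of these shifts was not tested.

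Replicate numbers 1, 2 and 6 occur in both groups, but same-numbered libraries did not deviate together (correlations of -0.113, 0.00853 and -0.0381). Differently numbered pairs had correlations of -0.0762 to 0.143. The labels do not say what a number marks, and whether such libraries share a batch cannot be told from these values. With the replicate block on these 6 libraries 6 members were called and without the block 5, cl and Nepl5 being the additions with it and cl without it. The median log2 fold change of the 5 features was then 1.21 with and 1.20 without the block, and that of tested members 0.0292 with and 0.0310 without it. Over all features, the count of calls went from 82 to 184 without a filter and 164 without mutant replicate 3. On the 6 libraries numbered 1, 2 and 6 it was 118 without and 138 with the block. The low number of reads assigned to features is a limit, since 151 of 182 members could not be tested. Why so few lines were assigned was not tested.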
